A study of Homo sapiens and Mus musculus with 47 samples.

Results

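NEAT1 and MALAT1, a pair of abundant nuclear lncRNAs, were followed together with 4 genes of paraspeckle proteins, NONO, SFPQ, PSPC1 and RBM14. These 6 genes were matched by gene symbol among 57820 genes in each human count table and, as Neat1, Malat1, Nono, Sfpq, Pspc1 and Rbm14, among 55401 genes in each mouse table. Of the 6 genes, 5 were measured in every library. RBM14 was listed at or near 0 throughout and was not tested.

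The study captured RNA near chromatin marks with Chrom-seq and, separately, sequenced RNA from HEK293T cells (human embryonic kidney). In Chrom-seq, a reader domain carrying 10 SunTag epitopes was expressed for 48 h with the peroxidase APEX2, which a SunTag-binding antibody fragment brings to the reader. Cells took up 500 µM biotin-aniline during 30 min, a pulse of 1 min with 1 mM H2O2 started the labelling, and biotinylated RNA was pulled down on streptavidin and selected for poly(A) tails. The control cells had the same SunTag and APEX2 parts without a reader. The TAF3 reader is a domain that binds the active promoter mark H3K4me3. Its libraries used here came from human HCT116 cells (colon carcinoma) and from the mouse lines NIH3T3 (fibroblasts) and Neuro-2a (neuroblastoma). Each of these lines gave 3 TAF3 and 3 control libraries. The study also applied TAF3 in HEK293T cells, whose Chrom-seq was not analysed here. RNA-seq compared HEK293T cells with the CBX7 reader, which binds the repressive mark H3K27me3, with control cells, 3 libraries each. The study's text calls the control cells untreated, while the labels describe labelling with biotin-aniline for both groups, so the reader and the other steps of the treatment cannot be told apart. A further RNA-seq set used antisense oligonucleotides (ASOs) in HEK293T cells. They targeted the lncRNAs SETD5-AS1 (3 libraries), LINC00641 (2 libraries) and LINC00662 (3 libraries), beside a control ASO (3 libraries). The labels list the same 48 h of expression, 500 µM biotin-aniline and 1 mM H2O2 steps for all ASO libraries. The study's text does not describe these steps for the ASO cells. The TAF3 and CBX7 readers are mouse sequences expressed from plasmids. The study's text calls sequencing replicates independent without saying what was repeated, and the labels name no separate cultures, so the p-values measure only the spread between these libraries, which may be technical in part.

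Paraspeckles are nuclear bodies built around NEAT1. The NEAT1 gene gives a short polyadenylated transcript and a long one, and the long transcript is the scaffold on which NONO, SFPQ and other proteins gather. MALAT1 lies beside NEAT1 in the genome and concentrates in nuclear speckles, bodies rich in splicing factors. NONO, SFPQ and PSPC1 form the DBHS family of RNA-binding proteins, which pair with each other, and NONO and SFPQ are needed for paraspeckle assembly. RBM14 is a further paraspeckle protein with a prion-like domain.

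In hg19, NEAT1 (ENSG00000245532.4) spans chr11:65190245-65213011 on the plus strand and MALAT1 (ENSG00000251562.3) spans chr11:65265233-65273940 on the same strand. Their mouse counterparts lie on the minus strand of mm10, Neat1 at chr19:5824708-5845478 and Malat1 at chr19:5795690-5802672. The 3′ ends of MALAT1 and of the long NEAT1 transcript are not made by ordinary polyadenylation. RNase P cuts the RNA, and the new end is protected by a triple helix formed by U-rich stretches and an A-rich stretch encoded in the genome. The following 100 bases end with that A-rich stretch in each of the 4 genes. They are shown because the libraries were selected for poly(A) tails and these ends carry a genomic A-rich run instead. Capitals mark a U-rich stretch, TTTTGCTTTT (letter T in the DNA), and the last 11 bases of the A-rich stretch, AAAAAGCAAAA. Other runs rich in T or A near them are left in lower case.
NEAT1, hg19 chr11:65212912-65213011, plus strand: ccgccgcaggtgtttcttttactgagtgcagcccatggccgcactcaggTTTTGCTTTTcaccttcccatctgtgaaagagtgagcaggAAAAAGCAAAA
MALAT1, hg19 chr11:65273488-65273587, plus strand: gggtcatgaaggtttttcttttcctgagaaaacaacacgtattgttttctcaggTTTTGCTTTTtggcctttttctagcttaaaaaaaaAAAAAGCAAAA
Neat1, mm10 chr19:5824708-5824807, minus strand: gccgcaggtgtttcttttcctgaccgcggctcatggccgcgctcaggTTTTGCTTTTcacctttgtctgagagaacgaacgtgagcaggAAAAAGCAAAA
Malat1, mm10 chr19:5795982-5796081, minus strand: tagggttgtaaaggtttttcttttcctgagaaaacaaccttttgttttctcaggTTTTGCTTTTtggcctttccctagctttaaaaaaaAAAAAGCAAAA

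The marked A-rich stretch closes the annotated gene in NEAT1 and Neat1, with 0 bases after it. In MALAT1 it ends 353 bases before the annotated gene end, and in Malat1 292 bases before it. The gap between the marked U-rich and A-rich stretches was 30 bases in NEAT1, 25 in MALAT1, 32 in Neat1 and 25 in Malat1. The letters searched came from human NEAT1 itself. AAAAAGCAAAA is its last 11 bases, and TTTTGCTTTT is the reverse complement of its last 10, so NEAT1 held AAAAAGCAAAA by definition. The limits used below, 450 and 60 bases, include the distances given above. TTTTGCTTTT and AAAAAGCAAAA were then searched on the sense strand in the last 450 bases of every gene, as a description. Of 57820 human genes, 238 held the first and 88 the second. Only NEAT1 and MALAT1 held both in that order within 60 bases of each other, a share of 0.003459% of human genes. Among 55364 mouse genes searched, 201 held the first and 80 the second, and only Neat1 and Malat1 held both in that way (0.003612%). Over each whole gene on the antisense strand, TTTTGCTTTT occurred once in NEAT1 and AAAAAGCAAAA did not occur, and in MALAT1 the antisense matches numbered 2 and 1. The reverse complement of TTTTGCTTTT is contained in AAAAAGCAAAA, so sense and antisense matches overlap each other.

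The short NEAT1 transcript ends at an ordinary polyadenylation site. In the GENCODE v44 annotation lifted to hg19, NEAT1 has 9 transcripts, of which 1 reaches the gene end. The farthest of the shorter transcripts ends 3740 bases from the gene start, at 16.4% of the span, which leaves 19027 bases (83.6%) to the long form alone. The 100 bases around that end are given here with the AATAAA letters in capitals, because they mark the end of the form that a poly(A) selection is designed to keep.
NEAT1 short form, hg19 chr11:65193905-65194004, plus strand: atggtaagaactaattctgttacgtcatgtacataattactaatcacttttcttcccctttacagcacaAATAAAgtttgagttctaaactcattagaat

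AATAAA lay 5 bases before that transcript end, and the same letters occur in the last 100 bases of 32.2% of human genes. The count tables hold 1 value per gene over its whole span, so short and long NEAT1 RNA were counted together. APEX2 labels mainly guanosine with biotin-aniline, and guanine made up 23.6% of the bases of NEAT1, 23.9% of MALAT1, 25.1% of Neat1 and 25.4% of Malat1.

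Across all libraries the total counts ranged from 8258859 to 17558305, and the lowest count of any of the 5 measured genes was 770, in PSPC1. Each cell line was checked against 5 marker genes listed for it. All 5 exceeded 1 CPM, the count scaled to a common library size with TMM factors, in HCT116, in NIH3T3 and in every HEK293T group. In Neuro-2a 4 of 5 did so. The fifth, Tubb3, had 0 counts in every library of both mouse lines, and the cause was not tested. None of the 5 Neuro-2a markers reached 1 CPM in NIH3T3, while 2 of the 5 NIH3T3 markers did in Neuro-2a controls and 3 of 5 with TAF3, led by Vim at 707 ± 55.1 CPM in controls. Of the 5 HCT116 markers 4 exceeded 1 CPM in every HEK293T group, and 2 of the 5 HEK293T markers did in HCT116, led by NES at 97.8 ± 10.6 CPM in controls. Each ASO target was lower with its own ASO. SETD5-AS1 was 4.37 ± 0.392 CPM with its ASO against 51.3 ± 0.499 CPM with the control ASO (SD, n = 3 each), and LINC00662 was 1.60 ± 0.379 against 12.9 ± 0.921 CPM. LINC00641 was 1.44 ± 0.724 CPM (n = 2) against 39.5 ± 2.18 CPM. SETD5-AS1 was also lower with the ASOs against the other lncRNAs, at 30.3 ± 1.12 CPM with the LINC00641 ASO (n = 2) and 29.0 ± 0.684 CPM with the LINC00662 ASO. LINC00641 was 26.97 ± 2.83 CPM with the SETD5-AS1 ASO and 35.8 ± 3.04 CPM with the LINC00662 ASO, and LINC00662 was higher than with the control ASO, at 18.3 ± 2.53 CPM with the SETD5-AS1 ASO and 17.0 ± 2.15 CPM with the LINC00641 ASO. The first TAF3 library of Neuro-2a stood apart from the other two, and the third control ASO library was high in both lncRNAs. Fold changes of the members are given with and without them where they move.

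The levels of the members differed by orders of magnitude when expressed per length, as CPM per kb of gene span. On this scale, where the span includes introns, MALAT1 was the highest of the 5 in every group. By CPM alone, NONO (1041 ± 31.6) and SFPQ (923 ± 31.0) lay above MALAT1 (826 ± 176) with the control ASO. With the LINC00641 ASO (n = 2) NONO (1111 ± 32.2) lay above MALAT1 (1038 ± 144). In the remaining groups MALAT1 was also the highest by CPM. In HCT116 control cells, MALAT1 had 524 ± 49.4 CPM per kb, NEAT1 93.5 ± 5.81, SFPQ 45.3 ± 0.380, NONO 32.0 ± 1.28 and PSPC1 0.793 ± 0.0121 (SD, n = 3 for each). No group ranges overlapped between neighbours in that order. PSPC1, whose gene spans 108.247 kb, was the lowest on this scale in every group. NEAT1 ranked next to MALAT1 in HCT116 and NIH3T3 controls. In Neuro-2a controls and with the control ASO it lay below SFPQ and NONO, and in the HEK293T controls of the CBX7 comparison below NONO but above SFPQ.

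**Figure D1:**
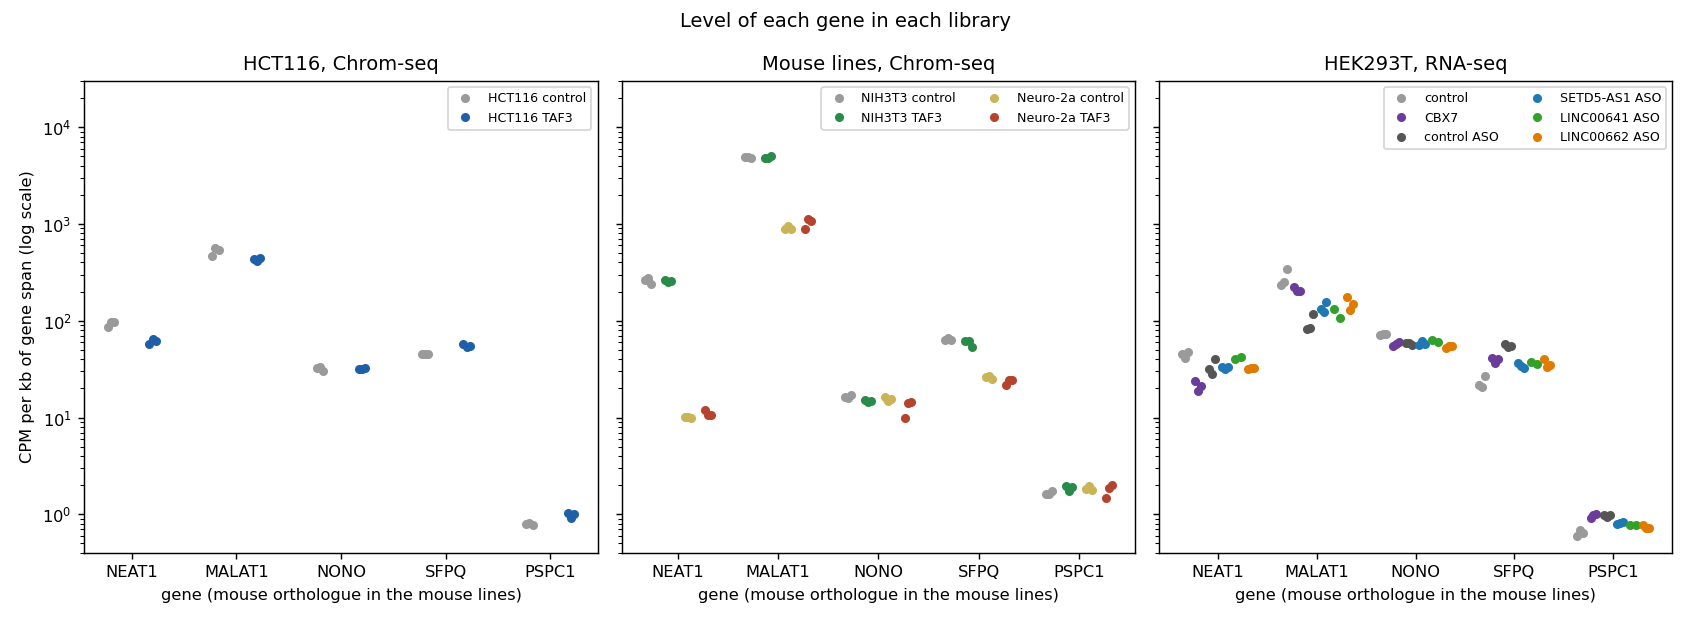
Level of the 5 measured genes in each library, as CPM per kb of gene span on a log axis, by cell line and assay, with 1 point for each library and colours for the groups. On this scale MALAT1 is the highest and PSPC1 the lowest of the 5 in every group, and Neat1 and Malat1 of NIH3T3 sit above those of Neuro-2a.

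Between the mouse lines, the largest difference among the 5 measured genes was that of Neat1. Neat1 took 0.528% ± 0.0318 of all counts in NIH3T3 controls and 0.0204% ± 0.0000467 in Neuro-2a controls (SD, n = 3 each), a ratio of 25.8. Malat1 took 3.34% ± 0.0269 and 0.623% ± 0.0264, a ratio of 5.37. The ratio was 2.49 for Sfpq, 1.06 for Nono and 0.897 for Pspc1. By CPM, Malat1 ranked 1st of all genes in NIH3T3 controls and Neat1 6th, while in Neuro-2a controls they ranked 3rd and 1045th. The lines were captured as separate experiments, so the cell line and the experiment cannot be told apart. These shares are of RNA captured after labelling without a reader, so the abundance of an RNA in the cells and its labelling cannot be told apart. In bulk samples such as these, fewer cells with an RNA and less of it per cell cannot be told apart either.

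In HCT116 Chrom-seq, the TAF3 comparison asks which RNAs were recovered more near H3K4me3 than by the reader-free control. Both lncRNAs were recovered less with TAF3, SFPQ and PSPC1 slightly more, and NONO at nearly the same level. A gene was called when its adjusted p was under 0.05 and its log2 fold change at least 0.75 in size. None of the 5 tested genes was called, beside 6.62% of the 18731 genes tested. At an adjusted p under 0.05 alone 4 of the 5 passed, beside 34.9% of all genes, and in those 4 the groups did not overlap, beside 44.6% of all genes. There was no matched sequencing of unlabelled RNA from HCT116 in the tables used, so the abundance of an RNA in the cells and its labelling cannot be told apart.

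NEAT1 was at 1978, 2225 and 2184 CPM in the HCT116 control libraries and at 1308, 1458 and 1402 CPM with TAF3. All 3 TAF3 libraries lay below all 3 controls. Its TAF3 level was 65.2% of the control (log2 fold change −0.62, SE 0.0512, 95% interval −0.72 to −0.51, edgeR adjusted p = 3.43e-13), and 90.6% of the tested genes had a higher fold change. MALAT1 was at 4075, 4896 and 4708 CPM in control libraries and at 3763, 3615 and 3847 CPM with TAF3. Here too the groups did not overlap, with a smaller difference (log2 fold change −0.29, SE 0.0514, edgeR adjusted p = 1.7e-05). NEAT1 moved from 27th to 47th place among all genes by CPM and MALAT1 from 12th to 18th.

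The DBHS genes showed another pattern in HCT116. SFPQ, a splicing factor as well as a paraspeckle protein, was at 755, 756 and 767 CPM in control libraries and at 961, 895 and 924 CPM with TAF3. The 3 controls lay close together and below every TAF3 library (log2 fold change 0.29, SE 0.0493, edgeR adjusted p = 8.1e-06). PSPC1 was at 86.1, 86.9 and 84.4 CPM in controls and at 111, 99.6 and 109 CPM with TAF3, again without overlap (log2 fold change 0.31, SE 0.0620, edgeR adjusted p = 7.86e-05). NONO was at 584, 593 and 550 CPM in controls and at 575, 574 and 583 CPM with TAF3. Its groups overlapped, and the interval of its log2 fold change, −0.099 to 0.11, reached no further than these bounds (edgeR adjusted p = 0.972).

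In NIH3T3 cells, TAF3 and control differed little for either lncRNA. Neat1 was at 5443, 5685 and 5018 CPM in controls and at 5497, 5262 and 5385 CPM with TAF3. The TAF3 libraries lay within the range of the controls, and the 95% interval of the log2 fold change was −0.10 to 0.10 (edgeR adjusted p = 0.998). Malat1 was at 33986, 34513 and 33777 CPM in controls and at 33345, 33378 and 34989 CPM with TAF3. Its interval was −0.091 to 0.075 on the log2 scale (edgeR adjusted p = 0.92). None of the 5 tested genes was called, beside 11.1% of 19220 genes, and none passed at an adjusted p under 0.05 alone, beside 23.6% of genes.

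Of the proteins in NIH3T3, Nono was at 314, 306 and 329 CPM in controls and at 296, 278 and 284 CPM with TAF3. Sfpq was at 1004, 1049 and 1001 CPM in controls and at 966, 962 and 846 CPM with TAF3. In both genes every TAF3 library lay below every control, as groups did not overlap in 36.8% of all genes tested, but the adjusted p-values missed the threshold (edgeR adjusted p = 0.0544 for Nono and 0.075 for Sfpq). Their log2 fold changes were −0.15 (SE 0.0550) and −0.14 (SE 0.0559). Pspc1 was at 93.3, 92.8 and 101 CPM in controls and at 113, 100.1 and 111 CPM with TAF3, where 1 control lay within the TAF3 range (log2 fold change 0.17, edgeR adjusted p = 0.056).

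In Neuro-2a cells the tests were less precise, with a biological coefficient of variation of 0.169 against 0.101 in NIH3T3 and 0.0591 in HCT116. None of the 5 tested genes was called, beside 1.03% of 17006 genes, and none passed at an adjusted p under 0.05 alone, beside 1.24% of genes. Neat1 was at 209, 210 and 206 CPM in controls and at 246, 221 and 219 CPM with TAF3. The TAF3 libraries lay above the controls in Neat1, as groups did not overlap in 25.8% of genes, and the difference did not pass the test (log2 fold change 0.13, SE 0.0892, edgeR adjusted p = 0.498). The first TAF3 library was the highest, and without it the log2 fold change was 0.080 (edgeR adjusted p = 0.422). Malat1 was at 6233, 6726 and 6127 CPM in controls and at 6184, 7833 and 7511 CPM with TAF3, where the first TAF3 library lay among the controls (log2 fold change 0.17, SE 0.104, edgeR adjusted p = 0.442). Without that library the log2 fold change of Malat1 was 0.27 with an edgeR adjusted p of 7.699e-05, still under the size of 0.75, and 620 genes in place of 176 were called. Without the second TAF3 library it was 0.094 (edgeR adjusted p = 0.727), the lowest value when 1 library was left out.

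Nono was at 312, 285 and 298 CPM in Neuro-2a controls and at 190, 273 and 276 CPM with TAF3. The first TAF3 library was far below the others, and the log2 fold change was −0.27 with all libraries and −0.12 without it (edgeR adjusted p = 0.362 and 0.203). Sfpq was at 410, 422 and 395 CPM in controls and at 339, 384 and 380 CPM with TAF3 (log2 fold change −0.15, edgeR adjusted p = 0.434), and without the first TAF3 library the log2 fold change was −0.096 (edgeR adjusted p = 0.286). Pspc1 was at 106, 113 and 102 CPM in controls and at 84.0, 107 and 116 CPM with TAF3, so the first TAF3 library was again the lowest of its group (log2 fold change −0.063, edgeR adjusted p = 0.849), and without it the sign turned (log2 fold change 0.063, edgeR adjusted p = 0.626). Neat1 was the exception, with that library the highest of its group.

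The TAF3 enrichment of the mouse lines was compared directly, as the Neuro-2a log2 fold change minus that of NIH3T3 in 1 fit of 12 libraries. The difference was 0.12 for Neat1 (SE 0.103, 95% interval −0.096 to 0.34, edgeR adjusted p = 0.682) and 0.17 for Malat1 (SE 0.120, interval −0.081 to 0.42, edgeR adjusted p = 0.586). For the proteins it was −0.14 for Nono, −0.025 for Sfpq and −0.25 for Pspc1, with edgeR adjusted p-values of 0.795, 0.997 and 0.512. None was called, beside 3.05% of 19509 genes. Without the first Neuro-2a TAF3 library the difference for Malat1 was 0.28 with an edgeR adjusted p of 0.0052, under the size of 0.75, and without the second it was 0.099 with an edgeR adjusted p of 0.767. For Neat1 it was 0.074 without the first (edgeR adjusted p = 0.645).

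**Figure D2:**
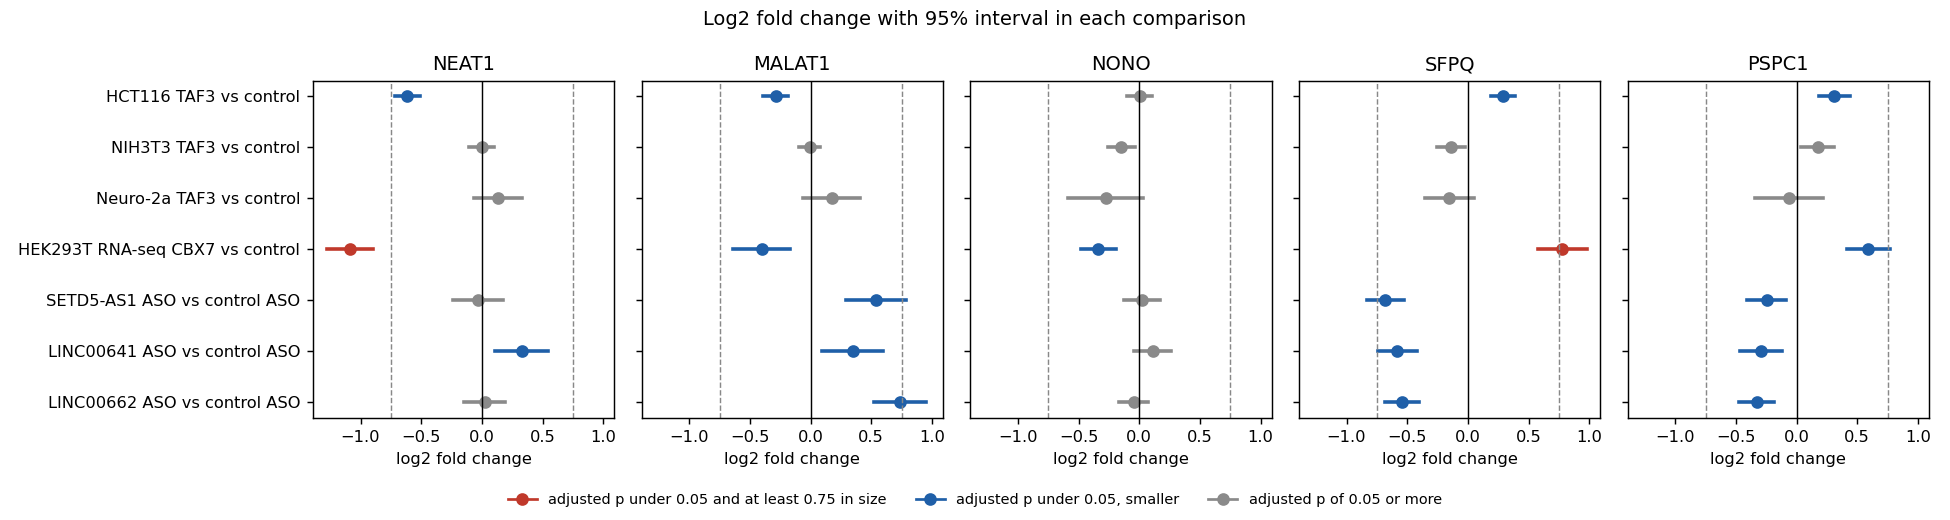
Log2 fold change (x axis) of the 5 measured genes in the 7 comparisons (y axis), with points for the edgeR estimate and lines for its 95% interval. Dashed lines stand at 0.75 in either direction, and colours mark the adjusted p. NEAT1 and SFPQ in the CBX7 comparison are the only points that pass both thresholds.

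In HEK293T RNA-seq, which measures RNA in the cells rather than RNA near a mark, the CBX7 comparison asks how gene expression differed in cells with the H3K27me3 reader. NEAT1 fell and SFPQ rose, and the other 3 tested genes also differed at an adjusted p under 0.05 without reaching the size of 0.75. So 2 of the 5 were called, 1 in each direction, beside 7.66% of 18204 genes (4.17% higher and 3.48% lower). All 5 passed at an adjusted p under 0.05 alone, beside 29.2% of all genes, and in none of the 5 did the groups overlap, beside 42.2% of all genes.

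NEAT1 was at 1042, 933 and 1088 CPM in the control libraries and at 539, 425 and 478 CPM with CBX7. All 3 CBX7 libraries lay far below the lowest control, and the level with CBX7 was 47.1% of the control (log2 fold change −1.09, SE 0.0906, 95% interval −1.28 to −0.89, edgeR adjusted p = 1.4e-06). A higher fold change was found for 97.5% of the tested genes. MALAT1 was at 2028, 2205 and 3012 CPM in controls and at 1946, 1765 and 1778 CPM with CBX7. The third control library was the highest by far. The log2 fold change was −0.40 (SE 0.111, edgeR adjusted p = 0.0126) with it and −0.20 (edgeR adjusted p = 0.0726) without it. The adjusted p also rose above 0.05 without the second CBX7 library (−0.37, edgeR adjusted p = 0.0518) and without the third (−0.37, edgeR adjusted p = 0.0649).

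SFPQ was at 359, 349 and 453 CPM in controls and at 695, 615 and 680 CPM with CBX7. The highest control lay below the lowest CBX7 library (log2 fold change 0.78, SE 0.0955, 95% interval 0.58 to 0.98, edgeR adjusted p = 3.18e-05). The call rests on the size threshold, since the log2 fold change was 0.74 without the first CBX7 library, 0.73 without the first control and 0.71 without the second control, each with an edgeR adjusted p of 0.0005578 or less. PSPC1 was at 63.9, 75.2 and 70.1 CPM in controls and at 100.03, 107 and 109 CPM with CBX7 (log2 fold change 0.59, SE 0.0834, edgeR adjusted p = 9.46e-05). NONO, the partner of both in DBHS pairs, was at 1288, 1301 and 1311 CPM in controls and at 986, 1025 and 1074 CPM with CBX7 (log2 fold change −0.34, SE 0.0680, edgeR adjusted p = 0.00153). So within the DBHS family SFPQ and PSPC1 were higher with CBX7 and NONO lower.

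The ASO experiment asks which genes changed when SETD5-AS1, LINC00641 or LINC00662 was knocked down. MALAT1 was higher and SFPQ and PSPC1 were lower in each comparison, NEAT1 differed at an adjusted p under 0.05 with the LINC00641 ASO alone of the 3, and NONO with none. No member was called. The 3 comparisons share the same 3 control ASO libraries, so their values stand side by side and do not support each other. Calls were made for 24.4% of 18544 genes with the SETD5-AS1 ASO, 22.5% of 18503 with the LINC00641 ASO and 24.9% of 18562 with the LINC00662 ASO. At an adjusted p under 0.05 alone, 3, 4 and 3 of the 5 tested genes passed, beside 52.7%, 49.7% and 54.4% of all genes.

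MALAT1 was at 709, 740 and 1028 CPM with the control ASO. The third control library stood above both others and also above 1 LINC00641 ASO library. The values were 1153, 1069 and 1364 CPM with the SETD5-AS1 ASO, 1140 and 936 CPM with the LINC00641 ASO, and 1523, 1124 and 1286 CPM with the LINC00662 ASO. With the SETD5-AS1 ASO the log2 fold change was 0.54 (SE 0.118, edgeR adjusted p = 9.11e-04). It was 0.35 with the LINC00641 ASO (SE 0.121, edgeR adjusted p = 0.0229), where the groups overlapped and the adjusted p ran up to 0.224 when a library was left out. With the LINC00662 ASO it was 0.73 (SE 0.104, 95% interval 0.52 to 0.95, edgeR adjusted p = 1.1e-06), just under the size of 0.75. Without the third control library the log2 fold changes were 0.72, 0.52 and 0.92, so that MALAT1 then passed both thresholds with the LINC00662 ASO. It also did so without the second or the third LINC00662 ASO library (0.83 and 0.75).

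NEAT1 was at 729, 649 and 905 CPM with the control ASO, the third library again being the highest. It was at 752, 722 and 753 CPM with the SETD5-AS1 ASO and at 730, 746 and 739 CPM with the LINC00662 ASO, within the range of the controls in both. The log2 fold changes were −0.031 (95% interval −0.24 to 0.18, edgeR adjusted p = 0.815) and 0.023 (interval −0.15 to 0.19, edgeR adjusted p = 0.834). With the LINC00641 ASO NEAT1 was at 920 and 969 CPM, above every control (log2 fold change 0.33, SE 0.104, edgeR adjusted p = 0.013). That adjusted p ran up to 0.0806 when a library was left out. Without the third control library the log2 fold changes of NEAT1 were 0.11, 0.46 and 0.17 with the SETD5-AS1, LINC00641 and LINC00662 ASOs (edgeR adjusted p = 0.306, 0.000446 and 0.0349).

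SFPQ was at 955, 893 and 920 CPM with the control ASO, higher than in any library with another ASO. It was at 609, 572 and 540 CPM with the SETD5-AS1 ASO, at 622 and 596 CPM with the LINC00641 ASO and at 679, 555 and 579 CPM with the LINC00662 ASO. The log2 fold changes were −0.68 (SE 0.0734, edgeR adjusted p = 4.89e-07), −0.58 (SE 0.0765, edgeR adjusted p = 2.54e-06) and −0.54 (SE 0.0687, edgeR adjusted p = 1.91e-07). These groups did not overlap, as was so for 59.3%, 65.4% and 60% of all genes. PSPC1 was at 106, 101 and 107 CPM with the control ASO and between 77.3 and 89.7 CPM in the 8 libraries with another ASO. Its log2 fold changes were −0.24, −0.29 and −0.33 (edgeR adjusted p = 0.0122, 0.00611 and 3.1e-04). NONO was at 1068, 1049 and 1006 CPM with the control ASO and between 929 and 1134 CPM in the others. Its log2 fold changes were 0.020, 0.11 and −0.046 (edgeR adjusted p = 0.83, 0.228 and 0.526).

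**Figure D3:**
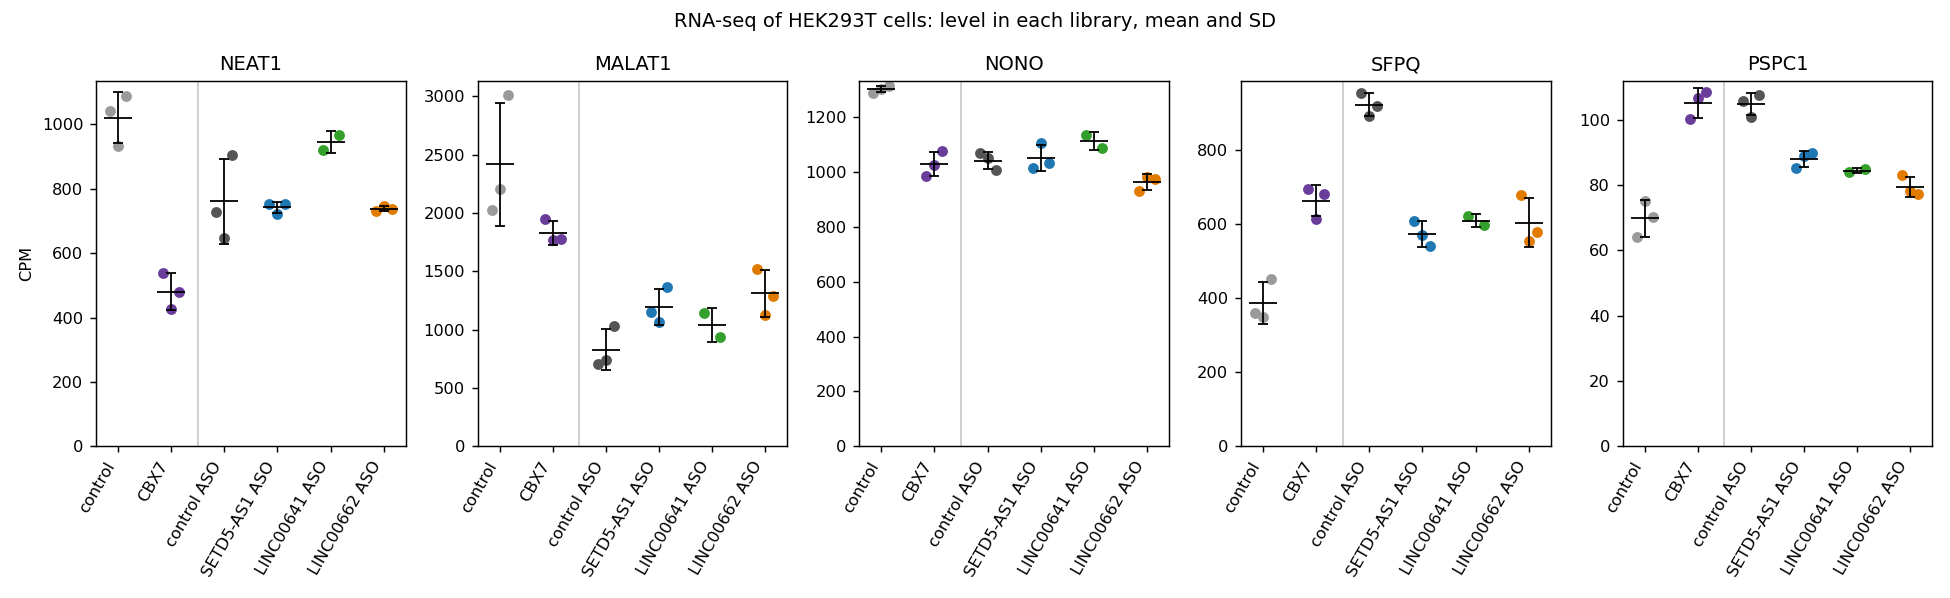
CPM of the 5 measured genes in each HEK293T RNA-seq library (y axis, from 0), by group (x axis), with coloured points for libraries, a black dash for the mean and bars for the SD. NEAT1 is lowest with CBX7, and SFPQ is lowest in the control of the CBX7 comparison and highest with the control ASO.

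The HEK293T control groups of the CBX7 and ASO experiments were themselves unlike. As shares of all counts, MALAT1 was 3.08 times and NEAT1 1.41 times as high in the control of the CBX7 comparison as with the control ASO, while SFPQ was 0.442 times as high and PSPC1 0.700 times. NONO was 1.31 times as high. The order of the 6 HEK293T groups therefore followed the experiment for MALAT1, with the control and CBX7 groups above all ASO groups. For NEAT1 the order from the top was control, LINC00641 ASO, control ASO, SETD5-AS1 ASO, LINC00662 ASO and CBX7. The LINC00641 ASO group lay above the control ASO group without overlap. The ranges of the control and LINC00641 ASO groups overlapped, as did those of the control ASO group with its neighbour SETD5-AS1 ASO and of the latter with LINC00662 ASO, and CBX7 lay below all. The experiment and the treatment cannot be told apart between these tables.

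The ratio of NEAT1 to MALAT1 counts is free of library scaling. Its log2 value was −1.10 ± 0.0487 in HCT116 controls and −1.43 ± 0.110 with TAF3 (SD, n = 3 each), without overlap. In NIH3T3 it was −2.67 ± 0.0770 and −2.66 ± 0.0504, and in Neuro-2a −4.93 ± 0.0615 and −4.97 ± 0.273. In HEK293T it was −1.22 ± 0.254 in the control and −1.93 ± 0.106 with CBX7. With the control ASO it was −0.11 ± 0.131, so that the RNAs had nearly equal counts, and after SETD5-AS1 knockdown it was −0.68 ± 0.156. It was −0.13 ± 0.253 after LINC00641 knockdown (n = 2) and −0.82 ± 0.235 after LINC00662 knockdown. An exact permutation test, two-sided, gave p = 0.1 for HCT116, CBX7, SETD5-AS1 and LINC00662, which is the smallest p that these group sizes allow. The p was 0.9 in NIH3T3, 0.9 in Neuro-2a and 1 for LINC00641 by the same exact test, and Benjamini-Hochberg adjustment over the 7 ratios gave 0.175 for each of the first 4 and 1 for the others.

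**Figure D4:**
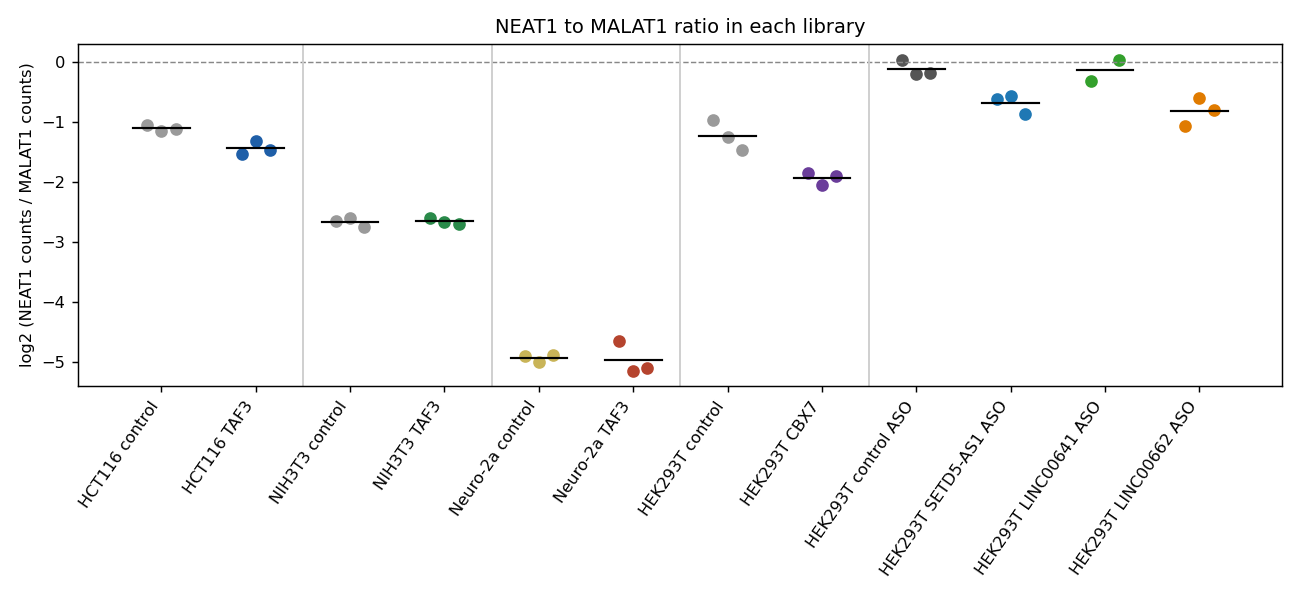
Log2 ratio of NEAT1 to MALAT1 counts (y axis) in each library, by group (x axis), with points for libraries and black lines for group means. The ratio is near 0 with the control ASO and near −5 in Neuro-2a, and the treated libraries lie below the controls in HCT116 and with CBX7 and the ASOs against SETD5-AS1 and LINC00662.

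RBM14 (hg19 chr11:66384053-66394818, plus strand) had 0 counts in every human library but 1 SETD5-AS1 ASO library with 1 count. Rbm14 (mm10 chr19:4800569-4811634, minus strand) had 0 counts in every mouse library. A count of 0 allows up to 3 counts, or between 0.171 and 0.363 CPM at these depths, counting error only. Both genes share nearly all of their span with another gene on the same strand. In human these are RBM14-RBM4, itself at 0 counts, and RBM4, a splicing regulator, at 13.8 ± 0.704 CPM in HCT116 controls. In mouse it is Gm21992, with 3402 to 3943 counts in NIH3T3 and 764 to 908 in Neuro-2a. None of 7910 human and none of 6553 mouse genes that lie wholly within a gene on the same strand had a count in any library. Of genes within an opposite-strand gene only, 34.2% to 50.9% had counts. The level of RBM14 in these cells can therefore not be read from the tables. Small same-strand genes annotated within Neat1 and Malat1 (Gm27533, Gm27505, Gm28006 and Gm27694) were likewise at 0. Gm12940 (mm10 chr4:127033731-127049398) overlaps the end of Sfpq (chr4:127021324-127037013) on the same strand. Reads in the shared stretch may therefore be missing from the Sfpq counts, which was not tested.

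Genes around the lncRNAs were looked at next. AP000769.1 lies between NEAT1 and MALAT1 on the same strand (hg19 chr11:65222728-65234028). It had 22.4 ± 1.18 CPM in HCT116 controls and 15.9 ± 1.85 CPM with TAF3 (SD, n = 3 each), with 361 to 405 counts against 197 to 286. The antisense gene AP000769.7 within MALAT1 had at most 2 counts in HCT116. In NIH3T3 the antisense gene Gm37376, which overlaps Malat1, had 44.1 ± 6.47 CPM in controls and 26.5 ± 5.73 CPM with TAF3. The strand setting of the counting is not given in the sources used here. As described for RBM14, genes within an opposite-strand gene had counts and those within a same-strand gene had none, which counting without strand would not give. Of 16 protein genes listed around the human locus, none was called in HCT116, where all 16 were tested, beside 6.62% of all genes. With CBX7, 1 of 15 tested was called, beside 7.66% of all genes. It was SLC25A45, a mitochondrial carrier, which fell to 3.02 ± 0.344 from 5.84 ± 0.580 CPM (log2 fold change −0.95, edgeR adjusted p = 0.00259). FRMD8, the nearest protein gene upstream of NEAT1, was the only one called with each ASO, and fell by 0.76, 0.96 and 0.96 on the log2 scale with the SETD5-AS1, LINC00641 and LINC00662 ASOs. That is 1 of 16, 15 and 16 genes tested, fewer than the 24.4%, 22.5% and 24.9% called among all genes.

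The remaining paraspeckle proteins, a list of 30 genes, were compared with all genes by their counts and medians. In HCT116, 24 of 28 tested had a positive log2 fold change with TAF3, with a median of 0.18 against −0.0067 over all genes. At an adjusted p under 0.05 alone, 17 of 28 passed, beside 34.9% of all genes, and 1 was called, beside 6.62%. It was ZC3H6, a zinc finger gene, which fell to 16.6 ± 1.39 from 28.5 ± 2.28 CPM (log2 fold change −0.78, edgeR adjusted p = 1.47e-08). In NIH3T3, 6 of 29 were positive with a median of −0.073 against 0.020 over all genes, and in Neuro-2a 9 of 29 with a median of −0.076 against 0.031. None was called in either mouse line, beside 11.1% of all genes in NIH3T3 and 1.03% in Neuro-2a. With CBX7 the median was 0.066 against −0.012 over all genes, and 1 of 28 was called, beside 7.66% of all genes. It was the splicing factor gene SRSF10, which rose to 453 ± 38.9 from 258 ± 25.6 CPM (log2 fold change 0.81, edgeR adjusted p = 1.26e-05).

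In the ASO comparisons the list had medians of −0.30 (SETD5-AS1), −0.31 (LINC00641) and −0.23 (LINC00662), against 0.028, 0.0042 and 0.0013 over all genes. In each of them 2 genes were called higher and 3 lower of 28 tested, a smaller share than the 24.4%, 22.5% and 24.9% called among all genes. With the SETD5-AS1 ASO the largest changes were in RBM7 (log2 fold change −2.07), a nuclear exosome cofactor with only 2.01 CPM in controls, in ZC3H6 (1.54) and in EWSR1 (−0.95), a FET family RNA-binding protein. With the LINC00641 ASO they were in ZC3H6 (1.66), RBM7 (−1.30) and FAM98A (−0.97). With the LINC00662 ASO they were in RBM7 (−1.87), SS18L1 (0.91) and EWSR1 (−0.84). SMARCA4, the ATPase of a chromatin remodeller, was called higher in each, by 0.77, 0.85 and 0.75, and it was named after its values were seen.

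Nuclear speckle proteins, the neighbours of MALAT1 in the nucleus, were a list of 20 genes, and all 20 were tested in every comparison. None was called with TAF3 in HCT116, NIH3T3 or Neuro-2a, beside 6.62%, 11.1% and 1.03% of all genes. With CBX7 none was called either, beside 7.66% of all genes. Their median was 0.18 in HCT116 against −0.0067 over all genes, −0.14 in NIH3T3 against 0.020, −0.067 in Neuro-2a against 0.031 and −0.056 with CBX7 against −0.012. With the SETD5-AS1 ASO 19 of 20 were negative, with a median of −0.33 against 0.028 over all genes. Of the 20, 4 were called lower, beside 2135 of all 18544 genes called lower and 24.4% called in either direction. The largest of these were SRSF11 (log2 fold change −1.02), SRSF6 (−0.96) and SART1 (−0.78), all splicing proteins. With the LINC00641 ASO 3 were called lower, SRSF6 (−1.03), SRSF11 (−0.84) and U2AF2 (−0.80), with a median of −0.19 against 0.0042. That stands beside 2124 of all 18503 genes called lower and 22.5% called in either direction. With the LINC00662 ASO the median was −0.036 against 0.0013, and ACIN1 (0.91) was called higher and SRSF6 (−0.88) lower, beside 24.9% of all genes called.

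**Figure D5:**
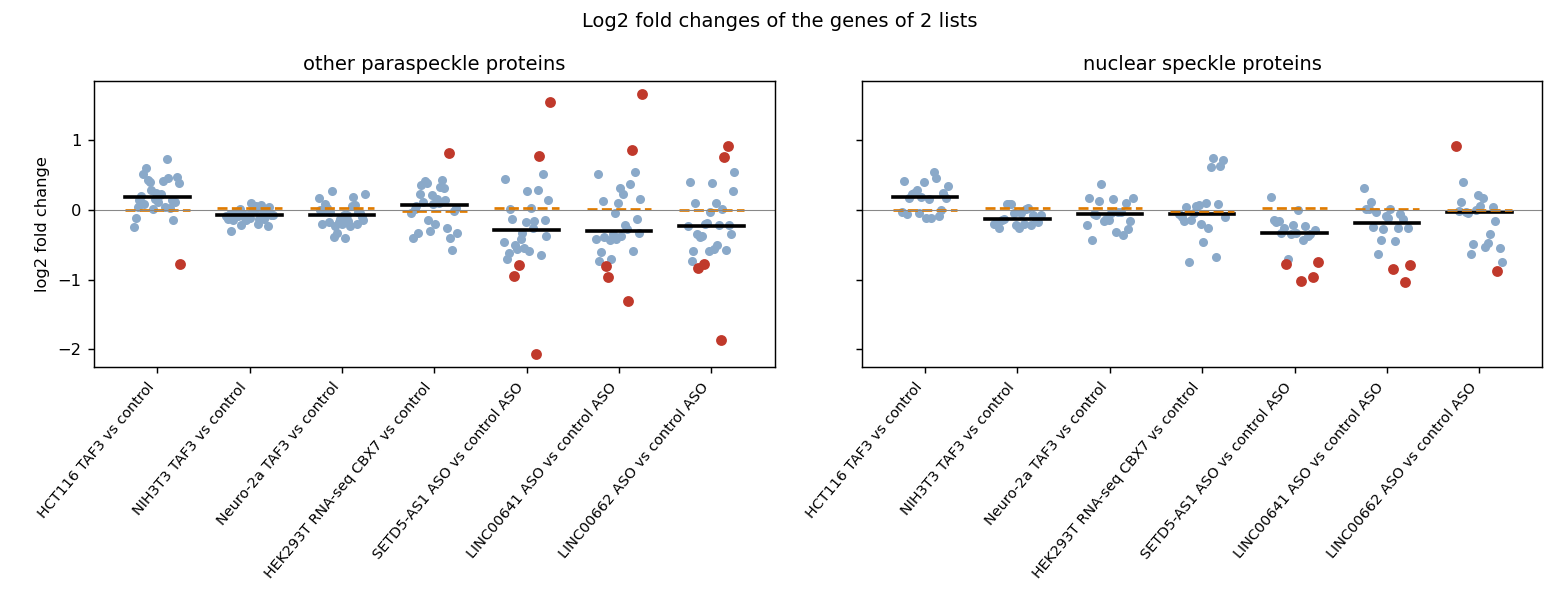
Log2 fold changes (y axis) of the other paraspeckle proteins (left) and nuclear speckle proteins (right) in the 7 comparisons (x axis), with 1 point for each gene tested and red for genes called. Black lines are the medians of the list and dashed orange lines those of all genes tested, and the black line lies above the orange one in HCT116 and below it in the ASO comparisons.

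A list of other lncRNAs gave a point of comparison for NEAT1 and MALAT1. Where these RNAs lie in the cell was not measured. Of 15 listed, 14 were found in the human tables and 12 tested in HCT116. There none was called, beside 6.62% of all genes, and the median was −0.10. In NIH3T3, 1 of 11 was called, beside 11.1% of all genes, namely Miat, which had only 0.751 ± 0.179 CPM with TAF3 and a mean of 0.0580 CPM in controls. None of 9 was called in Neuro-2a, beside 1.03% of all genes. With CBX7 none of 13 was called, beside 7.66% of all genes, and the median was −0.25. With the ASOs 2 of 13 tested were called for SETD5-AS1, 3 of 13 for LINC00641 and 2 of 13 for LINC00662, beside 24.4%, 22.5% and 24.9% of all genes. GAS5 and SNHG1, both hosts of small nucleolar RNAs, fell in each comparison. GAS5 went from 196 ± 13.3 to 66.4 ± 15.4 CPM with the SETD5-AS1 ASO (log2 fold change −1.56, edgeR adjusted p = 9.42e-09), and its log2 fold change was −1.66 and −1.71 with the LINC00641 and LINC00662 ASOs. LINC00657, the lncRNA NORAD, rose by 0.87 on the log2 scale with the LINC00641 ASO.

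The genes whose log2 CPM over the 11 ASO libraries ran closest to each lncRNA were named by Pearson correlation, as a description, among 10907 genes whose mean reached 100 counts. These libraries share 1 control group and the points are treatments as much as samples. For NEAT1 they were LYSMD1 (r = 0.848), CLHC1 (0.832) and AKNA (0.819). For MALAT1 they were RPS6KA5 (0.931), TAF1 (0.924) and MEF2A (0.921). Within the members SFPQ and PSPC1 ran together (r = 0.866), NEAT1 and MALAT1 did not (0.084), and MALAT1 ran against SFPQ (−0.679) and PSPC1 (−0.670).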

How the data were processed

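The deposited files used were 5 tables of raw read counts per gene from 35 of 47 listed samples. According to the submitters' processing notes and the study's methods, the authors trimmed reads with fastp 0.23.1, aligned them with HISAT2 2.1.0 to hg19 or mm10 and counted them with featureCounts 2.0.1 over GENCODE v19 or vM25 genes, and the counts were not normalized. Gene lengths in the tables equal the whole span, so intron reads may be included. The Chrom-seq of HEK293T cells (12 samples) was planned but not analysed here. From Chrom-seq of that line the study's text reports NEAT1 and MALAT1 among the RNAs found at H3K27me3 with the CBX7 reader.

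Fits held the groups of 1 comparison at a time and used edgeR 4.0.16 (quasi-likelihood test, TMM, Benjamini-Hochberg adjustment over all genes tested, R 4.3.3), after keeping genes with a summed count above 3 per library. The thresholds, 0.05 and 0.75 (log2), are the study's. Levels are CPM with TMM factors over all libraries of a table. Groups came from the sample titles. Replicate numbers were not used to pair the samples in the main fits. Among 34 replicate pairs none was identical, with a lowest chi-square per gene of 2.48. The procedure was run on simulated counts with a common spread and changes larger than any of the members here. How well smaller changes are found was not tested. Intervals of fold changes (95%) come from the fit, and floors cover counting error only. The members and gene lists were chosen with earlier results of these data known. Named were the members, at most 3 called genes with the largest change per list and comparison, the genes at the locus and the 3 best correlated genes. Alternatives were DESeq2 1.42.0, its size factors, library size alone, no filter, filterByExpr, a replicate block, a joint fit of the ASO groups, and omission of each library in turn. Sequences were read from hg19 and mm10 with pysam 0.24.0, gene ends as the tables give them, and figures drawn with matplotlib 3.10.9.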

Additional observations from a re-analysis of the deposited data

Results flagged for a closer look

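For some members the TAF3 libraries lay on opposite sides of the controls in different cell lines. For NEAT1 all TAF3 libraries were below the controls in HCT116 and above them in Neuro-2a, and the log2 fold change of HCT116 minus that of Neuro-2a was −0.75. SFPQ was higher with TAF3 in HCT116 and lower in both mouse lines, with a log2 difference of 0.43 from NIH3T3 and 0.44 from Neuro-2a. These 3 differences were not tested, since the lines are of different species and stand in separate tables. The mouse fold changes did not pass the test (edgeR adjusted p = 0.498 for Neat1 and 0.434 for Sfpq in Neuro-2a, and 0.075 for Sfpq in NIH3T3). Groups without overlap were frequent, at 44.6% of all genes tested in HCT116, 36.8% in NIH3T3 and 25.8% in Neuro-2a.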

How the results depend on the processing

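Across 55 results and 647 alternative values, those that changed direction were mostly values close to 0. In NIH3T3, Neat1 changed from −0.000235 to 0.0108 with DESeq2 and with its size factors, 0.0547 with library size alone, 0.0194 with filterByExpr and 0.00145 with the replicate block, and Malat1 from −0.0080 to 0.00284 with DESeq2 and with its size factors, 0.0469 with library size and 0.0116 with filterByExpr. NONO in HCT116 became −0.0000586 with no filter, NEAT1 became 0.11 with library size alone (SETD5-AS1 ASO) and −0.044 with all ASO groups in one fit (LINC00662 ASO), and MALAT1 passed the size threshold with library size alone (LINC00662 ASO, 0.77). In Neuro-2a 398 genes were called with DESeq2 and 516 with no filter in place of 176. The cause was not tested. Library size alone moved the median of all genes for the SETD5-AS1 ASO from 0.028 to 0.17, and the calls from 2390 higher and 2135 lower to 3194 and 1611.

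Leaving out 1 library gave these ranges of the log2 fold change: NONO in HCT116 −0.027 to 0.026, Neat1 in NIH3T3 −0.041 to 0.047, Malat1 in NIH3T3 −0.030 to 0.0074, Pspc1 in Neuro-2a −0.16 to 0.063, SFPQ with CBX7 0.71 to 0.91, NEAT1 and NONO with the SETD5-AS1 ASO −0.14 to 0.11 and −0.021 to 0.048, and NEAT1 and MALAT1 with the LINC00662 ASO −0.085 to 0.17 and 0.61 to 0.92. The log2 ratio of NEAT1 to MALAT1 ran from −0.033 to 0.041 in NIH3T3, −0.19 to 0.053 in Neuro-2a and −0.20 to 0.16 with the LINC00641 ASO. The difference between mouse lines ran from −0.086 to 0.037 for Sfpq and −0.23 to 0.024 for Nono, and Neuro-2a calls from 41 (without the second control) to 620 (without the first TAF3 library). The others were 44 and 45 without control libraries 1 and 3 and 73 and 106 without TAF3 libraries 2 and 3.

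The correlations of same-numbered libraries were above 0.1 in all pairs of no comparison (highest with CBX7, at 0.107, 0.239 and 0.083). Differently numbered libraries were not correlated as a reference, so these values cannot decide whether the numbers pair the samples. A replicate block gave 1202 calls in HCT116, 1865 in NIH3T3, 136 in Neuro-2a, 1432 with CBX7, and 4370, 3769 and 4506 with the SETD5-AS1, LINC00641 and LINC00662 ASOs, and 554 for the difference between mouse lines. With the block NEAT1 was −0.62 in HCT116 and −1.09 with CBX7. MALAT1 with the LINC00641 ASO was 0.26 under the block, with an edgeR adjusted p of 0.0909. Alternatives for the Chrom-seq of HEK293T cells were not run.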
